A study of Mus musculus with 12 samples.

Results

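Pericyte and smooth muscle genes, which mark the wall cells of blood vessels and airways, were followed as 10 of the 49585 genes in the count table across 12 whole-lung RNA-seq libraries from melanoma-bearing mice. They were chosen by name, with earlier results of the same comparisons known: the difference in Rgs5 between aged and young mice, which had the smallest p of that comparison, was in view, and which other values were in view is not recorded. Of them, 4 are used as pericyte markers (Rgs5, Pdgfrb, Cspg4 and Notch3), and 6 belong to contractile smooth muscle (Acta2, Actg2, Myh11, Tagln, Cnn1 and Des). All 10 had enough counts to be tested.

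The mice were C57BL/6J carrying MO4 melanoma cells under the skin, and every group bore the tumor. Each of the 4 groups had 3 libraries: mice of 22 months given anti-PD-1 with anti-IL-21 receptor antibody (the combination group), mice of 22 months given anti-PD-1 (aged anti-PD-1), mice of 22 months given a rat control antibody (aged control), and mice of 2 months given anti-PD-1 (young anti-PD-1). Anti-PD-1 blocks a checkpoint receptor of T cells, and IL-21 is a T cell cytokine. Injections were intraperitoneal on days 3, 7 and 11 after inoculation, which the labels state for anti-PD-1 and for the control antibody. There was no young group without anti-PD-1, so a difference between aged and young mice given anti-PD-1 is not a difference of age alone. Whether the libraries of a group are different mice is not in the labels. The p-values therefore set a group difference against the spread between these samples, which may be technical.

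As background, pericytes sit on the outside of capillaries within the basement membrane they share with endothelium, and they are held there by PDGF-B from endothelial cells acting on the receptor PDGFRB. Smooth muscle surrounds arteries, veins and airways and contracts through smooth muscle myosin sliding on actin, and many of its genes are driven by serum response factor with myocardin-family coactivators at a DNA element called the CArG box. Notch3, which receives signals from ligands on endothelium, is a receptor of mural cells. In the lung, Acta2 and Des also mark airway smooth muscle, and Des is also a protein of heart and skeletal muscle.

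The promoters of 6 of the 10 genes were in the RefSeq table used (GRCm38.p6; Rgs5, Cspg4, Notch3, Acta2, Cnn1 and Des), each spanning 250 bases before the transcription start to 50 after it. Those of Acta2, Cnn1 and Rgs5 are shown because these 3 genes carry the differences described below. The Acta2 promoter is chr19:34255324-34255623 on the minus strand, the Cnn1 promoter chr9:22099003-22099302 on the plus strand and the Rgs5 promoter chr1:169655251-169655550 on the plus strand. Capitals mark matches to the CArG box that differ from it by 1 base in the inner 6, and sequence outside such matches is in lower case.
Acta2: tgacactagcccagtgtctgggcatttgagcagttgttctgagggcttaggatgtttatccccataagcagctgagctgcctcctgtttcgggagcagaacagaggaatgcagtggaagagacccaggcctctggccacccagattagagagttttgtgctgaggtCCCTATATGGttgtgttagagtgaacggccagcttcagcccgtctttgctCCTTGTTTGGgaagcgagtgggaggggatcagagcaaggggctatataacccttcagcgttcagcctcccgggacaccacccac
Cnn1: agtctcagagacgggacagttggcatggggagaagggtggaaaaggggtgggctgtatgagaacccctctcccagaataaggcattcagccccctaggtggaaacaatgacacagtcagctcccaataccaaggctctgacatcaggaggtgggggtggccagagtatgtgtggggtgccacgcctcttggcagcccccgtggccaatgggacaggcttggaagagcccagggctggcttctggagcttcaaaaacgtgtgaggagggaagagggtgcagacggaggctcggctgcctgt
Rgs5: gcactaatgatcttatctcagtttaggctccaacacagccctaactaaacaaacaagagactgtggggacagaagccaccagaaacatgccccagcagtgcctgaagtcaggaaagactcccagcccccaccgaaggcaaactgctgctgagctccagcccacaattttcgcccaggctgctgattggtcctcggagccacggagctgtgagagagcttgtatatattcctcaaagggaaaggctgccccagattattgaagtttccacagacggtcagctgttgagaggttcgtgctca
Acta2 had 2 such matches, at bases -84 to -75 and -34 to -25 from the RefSeq start of its window. For Acta2 and Cnn1 that start differs from the gene start in the positions given below. The search read both strands, and neither a CArG box nor such a near match was found in these windows of the other 5 genes. Of 32851 promoters of the same length, 1.63% held a CArG box and 9.98% held one with up to 1 such mismatch. A match describes the letters in a window and is not evidence of binding.

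Library totals were 16021877 to 22058620 counts. Alveolar epithelial markers (9 genes, among them Sftpc and Ager) summed to 18150 to 23410 CPM (read counts scaled to library size, with TMM) in the combination libraries, 16450 to 18480 in aged anti-PD-1, 17250 to 24720 in aged control and 26860 to 32210 in young anti-PD-1, so the labelled tissue was present throughout. Mitochondrially encoded genes took 11.5 to 14.9% of counts in the combination libraries, 7.88 to 11.8% in aged anti-PD-1, 7.32 to 10.4% in aged control and 6.05 to 7.22% in young anti-PD-1. Haemoglobin genes took 1.76 to 3.98% in combination, 1.06 to 1.305% in aged anti-PD-1, 1.26 to 1.99% in aged control and 1.28 to 1.53% in young anti-PD-1. Of the 12 libraries, combination library 2 had the highest mitochondrial (14.9%) and haemoglobin (3.98%) shares and the lowest TMM factor (0.866). Aged control library 1 stood apart from the other 2 of its group in several of the pericyte genes, and in Myh11 and Des. For Pdgfrb and Cspg4 the difference from aged control is given with and without it. For Notch3, Myh11 and Des the span of that difference over the alternative analyses is given. In whole tissue, fewer cells of a type and less RNA per cell cannot be told apart.

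Per length of exon, which allows levels to be compared between genes, the contractile genes were more abundant than the pericyte genes. Over the 12 libraries, Tagln averaged 183 ± 38.5 CPM per kb (SD, n = 12) and Acta2 130 ± 33.1. Des followed at 46.1 ± 10.2 CPM per kb, Cnn1 at 34.1 ± 9.71, Actg2 at 28.5 ± 9.66 and Myh11 at 13.6 ± 2.50. The pericyte genes lay below these, with Pdgfrb at 5.89 ± 1.91 CPM per kb, Rgs5 at 3.63 ± 1.85, Notch3 at 2.24 ± 0.67 and Cspg4 at 0.564 ± 0.134. The ranges of mean ± SD overlapped between Tagln and Acta2, among Des, Cnn1 and Actg2 taken as neighbours, between Pdgfrb and Rgs5, and between Rgs5 and Notch3. The lowest raw count of any of these genes in a library was 75, for Cspg4. Groups of 3 libraries that do not overlap, as described below, were common. Among all genes tested, 16.1% had every aged anti-PD-1 library above every aged control library and 16.4% below. For combination against aged anti-PD-1 these shares were 15.7% and 16.5%, and for combination against aged control 3.92% and 5.78%. For aged against young anti-PD-1 they were 19.7% and 19.9%.

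**Figure D1:**
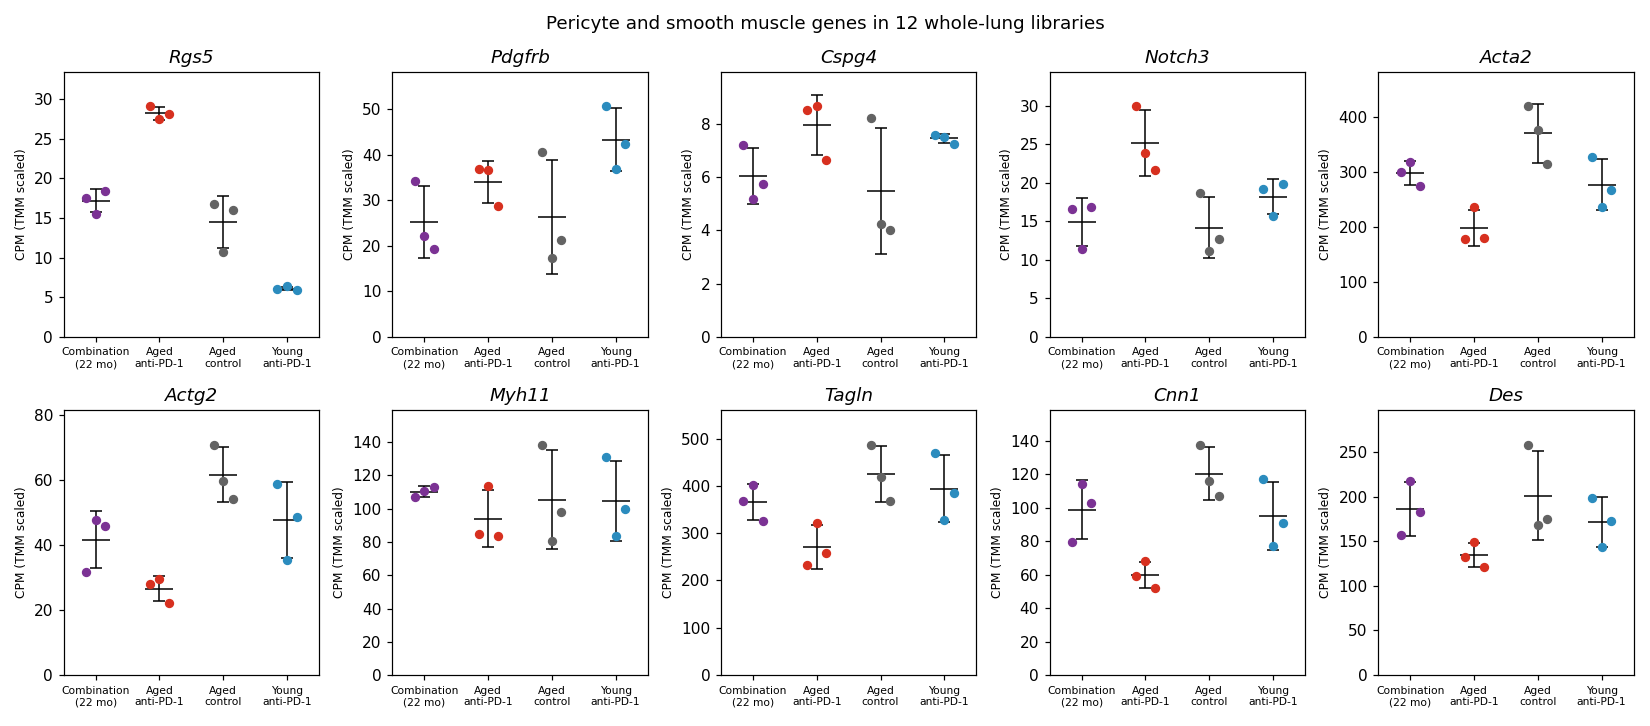
Level of each of the 10 genes in CPM (read counts scaled to library size, with TMM) in the 12 libraries, with 1 point per library and the mean ± SD of each group (n = 3) in black. Rgs5 is highest in aged anti-PD-1 lungs (27.5 to 29.1 CPM) and lowest in young anti-PD-1 lungs (5.88 to 6.35 CPM), and Acta2, Actg2, Tagln and Cnn1 have their lowest group mean in aged anti-PD-1 lungs.

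Rgs5 (ENSMUSG00000026678, chr1:169655501-169695813, plus strand, mm10) encodes a regulator that shortens signalling by G protein-coupled receptors and is among the most used markers of pericytes. Its level was 17.5, 15.5 and 18.4 CPM in the 3 combination libraries and 29.1, 27.5 and 28.1 CPM in aged anti-PD-1. It was 16.7, 10.7 and 16.0 CPM in aged control libraries and 6.03, 6.35 and 5.88 CPM in young anti-PD-1. The order of groups was aged anti-PD-1, combination, aged control and young anti-PD-1, and of these neighbours only combination and aged control overlapped. The aged anti-PD-1 libraries differed little among themselves, at 28.2 ± 0.813 CPM (SD, n = 3).

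Rgs5 was 4.63-fold higher in aged than in young anti-PD-1 lungs (log2 2.21 ± 0.16, SE), a value given as a description because the gene was chosen with it in view. Among aged mice, Rgs5 rose 1.95-fold in anti-PD-1 against control lungs (log2 0.96 ± 0.15; adjusted p = 0.00451, edgeR quasi-likelihood test over all genes). In combination against aged anti-PD-1 lungs it fell to 0.609 of the level (log2 -0.72 ± 0.15; adjusted p = 0.0128 by edgeR). That second call was lost without combination library 2 (log2 -0.66, adjusted p = 0.0684), whereas the first was kept in all 21 alternative analyses. The aged anti-PD-1 libraries, in view when Rgs5 was chosen for its high level there, enter both tests. Neither p is therefore free of that choice. Combination and aged control lungs differed by log2 0.24 (95% interval -0.08 to 0.56), which did not pass the test. Set beside young anti-PD-1 lungs, Rgs5 was log2 1.495 ± 0.157 higher in the combination group and 1.25 ± 0.16 higher in aged control, where age and antibody cannot be told apart.

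Notch3 (ENSMUSG00000038146, chr17:32120820-32166880, minus strand), the mural cell Notch receptor, was at 16.6, 11.4 and 16.8 CPM in combination libraries, 29.9, 23.8 and 21.7 CPM in aged anti-PD-1, 18.7, 11.1 and 12.7 CPM in aged control and 19.2, 15.7 and 19.9 CPM in young anti-PD-1. The aged anti-PD-1 libraries lay above every library of the other 3 groups, which overlapped one another. Notch3 rose 1.78-fold in aged anti-PD-1 lungs against aged control (log2 0.83 ± 0.20; adjusted p = 0.0234, edgeR) and fell to 0.594 of the level in combination against aged anti-PD-1 lungs (log2 -0.75 ± 0.20; adjusted p = 0.0359). The rise ran from log2 0.68 to 1.08 over the 21 alternatives, and library 1 was the highest of aged control. Both calls lay near the threshold. The first was lost without aged anti-PD-1 library 1 (adjusted p = 0.0785) or 2 (0.0507), or without aged control library 2 (0.0831) or 3 (0.0638), and in a fit of the compared groups only (0.0539). The second was lost without aged anti-PD-1 library 1 (adjusted p = 0.132) or 2 (0.0737), or without combination library 2 (0.149) or 3 (0.0516). Against young anti-PD-1, Notch3 was log2 0.47 ± 0.20 higher in aged anti-PD-1 lungs, as a description.

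Pdgfrb (ENSMUSG00000024620, chr18:61045150-61085061, plus strand), the receptor that binds PDGF-B, had 34.3, 22.1 and 19.4 CPM in combination libraries and 36.9, 36.7 and 28.8 CPM in aged anti-PD-1. Its aged control libraries were at 40.6, 17.3 and 21.2 CPM and the young anti-PD-1 libraries at 50.7, 37.0 and 42.5 CPM. Library 1 of aged control was as high as the young libraries, and the control range enclosed that of aged anti-PD-1. Between those groups the fit gave log2 0.37 ± 0.28 (adjusted p = 0.418 by edgeR), and without aged control library 1 it gave 0.82 (adjusted p = 0.0373). That was the only 1 of 21 alternatives in which Pdgfrb passed, and over them log2 ran from 0.142 to 0.824.

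Cspg4 (ENSMUSG00000032911, chr9:56865033-56899870, plus strand) encodes the proteoglycan NG2 on the pericyte surface. It had 7.20, 5.18 and 5.74 CPM in combination libraries, 8.53, 8.65 and 6.63 CPM in aged anti-PD-1, 8.21, 4.23 and 4.01 CPM in aged control and 7.58, 7.50 and 7.25 CPM in young anti-PD-1. Again aged control library 1 lay with the aged anti-PD-1 libraries and the other 2 below them. The difference between aged anti-PD-1 and aged control was log2 0.53 ± 0.24 (adjusted p = 0.164, edgeR) with that library and 0.95 (adjusted p = 0.00926) without it. Cspg4 passed in only that 1 of 21 alternatives, over which log2 ran from 0.347 to 0.946. In combination against aged anti-PD-1 lungs neither gene passed the test, with log2 -0.43 (95% interval -1.05 to 0.19) for Pdgfrb and -0.39 (-0.91 to 0.13) for Cspg4.

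Acta2 (ENSMUSG00000035783, chr19:34241090-34255336, minus strand) encodes smooth muscle alpha-actin, the main thin filament protein of vascular smooth muscle. Its level was 301, 319 and 275 CPM in combination libraries, 179, 236 and 181 CPM in aged anti-PD-1, 420, 378 and 315 CPM in aged control and 328, 236 and 268 CPM in young anti-PD-1. Every aged anti-PD-1 library lay below every combination and aged control library. Acta2 fell to 0.535 of the level in aged anti-PD-1 lungs against aged control (log2 -0.90 ± 0.15; adjusted p = 0.00581, edgeR), a call kept in all 21 alternatives. It rose 1.5-fold in combination against aged anti-PD-1 lungs (log2 0.59 ± 0.15; adjusted p = 0.029). That call was lost when libraries were scaled by their totals alone (adjusted p = 0.0912), and without aged anti-PD-1 library 1 (0.107) or 3 (0.0917) or combination library 1 (0.0577) or 2 (0.121). Scaling by totals shifted the median of all genes in that comparison by log2 -0.21, so Acta2, at log2 0.38 there, stood 0.59 above the median.

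Actg2 (ENSMUSG00000059430, chr6:83512905-83536265, minus strand), the gamma-actin of visceral smooth muscle, had the largest fold of the 10 genes between aged anti-PD-1 and aged control lungs. Its values were 31.5, 47.5 and 45.8 CPM in combination libraries, 28.1, 29.4 and 22.3 CPM in aged anti-PD-1, 70.9, 59.8 and 54.1 CPM in aged control and 58.6, 35.3 and 48.7 CPM in young anti-PD-1. The aged anti-PD-1 libraries were below all 9 others. Against aged control, Actg2 fell to 0.432 of the level in aged anti-PD-1 lungs (log2 -1.21 ± 0.20; adjusted p = 0.00579, edgeR), a call kept in all 21 alternatives. Combination against aged anti-PD-1 gave log2 0.64 ± 0.20 (adjusted p = 0.0564), just outside the threshold. It crossed the threshold in 6 alternatives, among them DESeq2 (adjusted p = 0.0154) and the analyses without combination library 1 (0.026), aged control library 1 (0.0457), and young library 1 (0.0478) or 2 (0.0407).

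Cnn1 (ENSMUSG00000001349, chr9:22099216-22109630, plus strand) encodes calponin, an actin-binding inhibitor of myosin ATPase that marks differentiated smooth muscle. It had 79.4, 114 and 102 CPM in combination libraries, 59.1, 67.9 and 52.1 CPM in aged anti-PD-1, 138, 116 and 107 CPM in aged control and 117, 76.8 and 90.8 CPM in young anti-PD-1. As with Actg2, no aged anti-PD-1 library reached the lowest library of another group. Cnn1 fell to 0.496 of the level in aged anti-PD-1 lungs against aged control (log2 -1.01 ± 0.17; adjusted p = 0.00608, edgeR), again in all 21 alternatives. It rose 1.65-fold in combination against aged anti-PD-1 lungs (log2 0.73 ± 0.17; adjusted p = 0.0219). This call was lost without aged anti-PD-1 library 1 (adjusted p = 0.0702) or 3 (0.0709) or combination library 2 (0.109) or 3 (0.0519).

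Tagln (ENSMUSG00000032085, chr9:45929619-45936058, minus strand) encodes transgelin, an actin-crosslinking protein. Its level was 369, 402 and 325 CPM in combination libraries, 232, 322 and 258 CPM in aged anti-PD-1, 487, 419 and 369 CPM in aged control and 470, 329 and 384 CPM in young anti-PD-1. Library 2 of aged anti-PD-1 came within a few CPM of combination library 3, and the groups did not overlap. Tagln fell to 0.636 of the level in aged anti-PD-1 lungs against aged control (log2 -0.65 ± 0.16; adjusted p = 0.0228, edgeR). The call was lost without aged anti-PD-1 library 1 (adjusted p = 0.076) or 3 (0.0743) or aged control library 2 (0.0601), and in a fit of the compared groups only (0.0549). Combination against aged anti-PD-1 gave log2 0.43 ± 0.16 (adjusted p = 0.0986). The annotated antisense gene RP23-228B2.5 lies on the other strand across 1241 exon bases of Tagln and held 99.2 to 100% of Tagln's count in every library, so the counts do not tell the 2 strands apart and the level of Tagln is uncertain to that extent.

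Myh11 (ENSMUSG00000018830, chr16:14194527-14291408, minus strand) is the smooth muscle myosin heavy chain, the motor of the contractile apparatus. It had 107, 111 and 113 CPM in combination libraries, 84.8, 114 and 83.5 CPM in aged anti-PD-1, 138, 80.3 and 97.8 CPM in aged control and 131, 83.8 and 99.6 CPM in young anti-PD-1. The groups overlapped in every comparison. In aged anti-PD-1 lungs against aged control its difference was log2 -0.17 (95% interval -0.59 to 0.26; adjusted p = 0.612 by edgeR), an interval that does not reach the fold of Acta2, Actg2 or Cnn1 in that comparison. Over the 21 alternatives the difference ran from log2 -0.33 to 0.08, with another sign in 1 of them. In combination against aged anti-PD-1 lungs it was log2 0.23 (-0.20 to 0.66; adjusted p = 0.491).

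Des (ENSMUSG00000026208, chr1:75360329-75368579, plus strand) is desmin, the intermediate filament that ties contractile units together. It had 157, 217 and 183 CPM in combination libraries, 133, 149 and 121 CPM in aged anti-PD-1, 258, 169 and 175 CPM in aged control and 199, 143 and 173 CPM in young anti-PD-1. The aged anti-PD-1 libraries lay below the other aged libraries and overlapped the young ones. Aged anti-PD-1 against aged control gave log2 -0.58 ± 0.18, with adjusted p = 0.0503 in edgeR and 0.0176 in DESeq2, and it was also under the threshold with no filter on low counts (0.0402), with a floor on mean CPM (0.0492) and without combination library 1 (0.0469) or 2 (0.0498). These were 5 of 21 alternatives, over which log2 ran from -0.689 to -0.355 and adjusted p reached 0.153. Aged control library 1, at 258 CPM, stood above the other 2 of its group. Combination against aged anti-PD-1 gave log2 0.46 ± 0.18 (adjusted p = 0.109 by edgeR), and 0.0382 without aged control library 1. Cardiac muscle, which also makes desmin and lines the pulmonary veins of mice, was present: 12 cardiac markers summed to 581 to 834 CPM in combination libraries, 617 to 1012 in aged anti-PD-1, 748 to 1358 in aged control and 507 to 801 in young anti-PD-1. None of the 12 passed the test between aged anti-PD-1 and aged control or between combination and aged anti-PD-1.

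Counted together, 2 of the 10 genes rose (Rgs5 and Notch3) and 4 fell (Acta2, Actg2, Tagln and Cnn1) in aged anti-PD-1 lungs against aged control, where 5.34% of the 18556 genes tested rose and 5.58% fell. In combination against aged anti-PD-1 lungs, 2 rose (Acta2 and Cnn1) and 2 fell (Rgs5 and Notch3), where 4.67% of all genes rose and 4.35% fell. That last count was 0 without combination library 2, 1 without aged anti-PD-1 library 1, and 2 without aged anti-PD-1 library 3 or combination library 3. The number called over all genes moved too, at 260 of 18935 without combination library 2, 584 of 18901 without aged anti-PD-1 library 1, 641 of 18906 without aged anti-PD-1 library 2 and 954 of 18877 without aged anti-PD-1 library 3, against 1674 of 18556 with all libraries. For aged anti-PD-1 and aged control it was 607 of 18906 without aged control library 2, and 1057, 881 and 715 without aged anti-PD-1 libraries 1, 2 and 3, against 2025 with all libraries. The aged anti-PD-1 libraries enter both comparisons, so the opposite signs of a gene in the pair are not independent of each other. In the first of them, the median log2 fold was 0.68 for the 4 pericyte genes and -0.78 for the 6 contractile genes, beside -0.02 for all genes tested. In the second, the same medians were -0.57 and 0.53, beside -0.01 for all genes. Since the genes were chosen with earlier results of these comparisons known, Rgs5 among them, nothing is read from these counts and medians.

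In combination against aged control lungs none of the 10 genes passed the test in edgeR, and 0% of all genes rose and 0% fell. At an unadjusted p under 0.05 there were 1228 of 18556 genes, 1 of them among the 10. DESeq2 called 76 genes of 16391 and limma-voom 0, and neither called one of the 10. The 1 gene was Actg2, singled out after its values were seen, which was lower in all 3 combination libraries than in any aged control library (log2 -0.57, 95% interval -0.98 to -0.15; adjusted p = 0.578 by edgeR). For Acta2 the interval was -0.63 to 0.01, for Cnn1 -0.65 to 0.08 and for Notch3 -0.37 to 0.52, so differences of these sizes cannot be told from none here.

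Between aged and young anti-PD-1 lungs, where the choice of genes was made with results in view, the values are given as a description, with no p. Beside Rgs5, the log2 difference was -0.84 ± 0.19 for Actg2, -0.67 ± 0.17 for Cnn1, -0.54 ± 0.16 for Tagln and -0.48 ± 0.15 for Acta2. It was -0.35 ± 0.17 for Des, -0.35 ± 0.28 for Pdgfrb, -0.16 ± 0.20 for Myh11 and 0.09 ± 0.24 for Cspg4. One of the 10, Rgs5, was among the genes called higher and 4 among those called lower, and over all genes 8.09% were called higher and 7.16% lower. Since the genes were chosen with this comparison in view, nothing is read from those counts. The aged control lungs did not share the lower contractile levels: against young anti-PD-1 they had log2 0.42 ± 0.15 for Acta2, 0.37 ± 0.19 for Actg2 and 0.34 ± 0.17 for Cnn1, again with age and antibody not told apart. The difference was 0.226 ± 0.175 for Des, 0.109 ± 0.158 for Tagln and 0.010 ± 0.197 for Myh11. For each contractile gene the libraries of these groups overlapped.

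**Figure D2:**
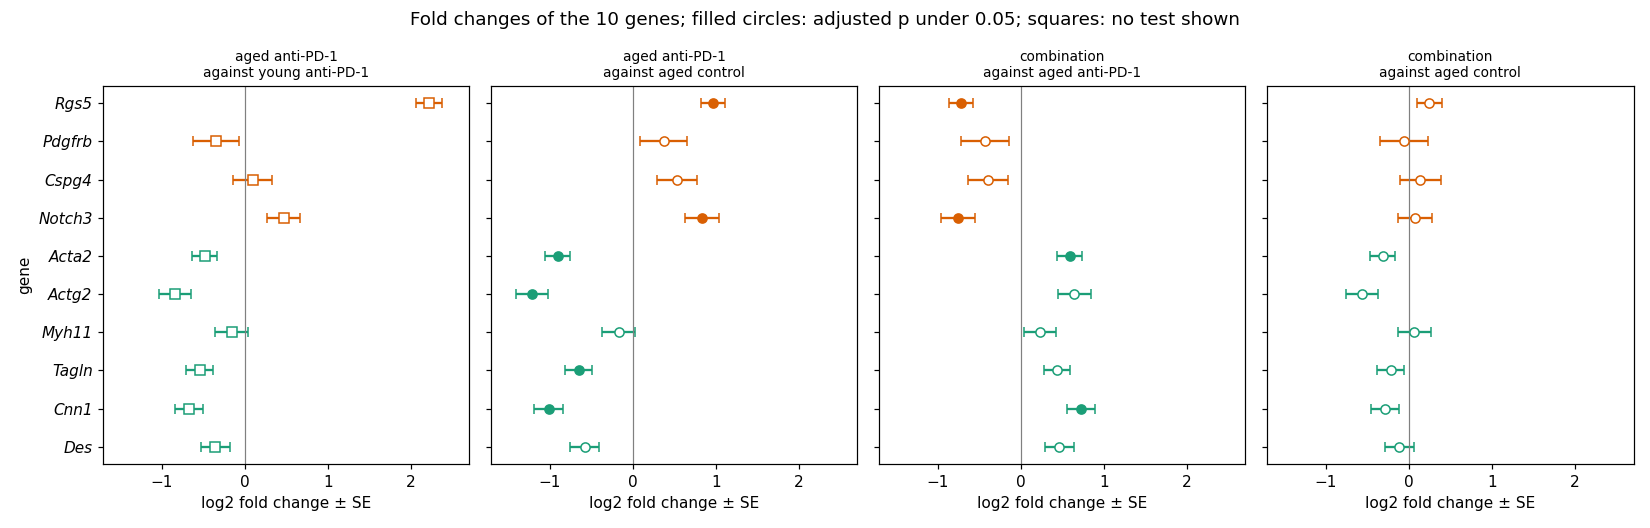
Log2 fold change ± SE of the 10 genes in the 4 comparisons, pericyte genes in orange and contractile genes in green; filled circles passed an adjusted p of 0.05, and the squares for aged against young anti-PD-1 carry no test. Rgs5 and Notch3 lie right of zero and Acta2, Actg2, Tagln and Cnn1 left of it in aged anti-PD-1 against aged control, and no gene is filled in combination against aged control.

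The genes also varied from library to library. Across the 12 libraries, as a description, log2 CPM of Actg2 and Cnn1 had Pearson r = 0.970 and that of Acta2 and Tagln 0.942, and after subtracting group means the values were 0.965 and 0.976. Pdgfrb and Cspg4 had r = 0.865 over the 12 libraries and 0.890 within groups. Rgs5 and Pdgfrb had r = -0.275 over the 12 libraries and 0.518 within groups. Rgs5 and Acta2 had r = -0.393 and -0.208. These libraries share scaling and whole-tissue composition.

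**Figure D3:**
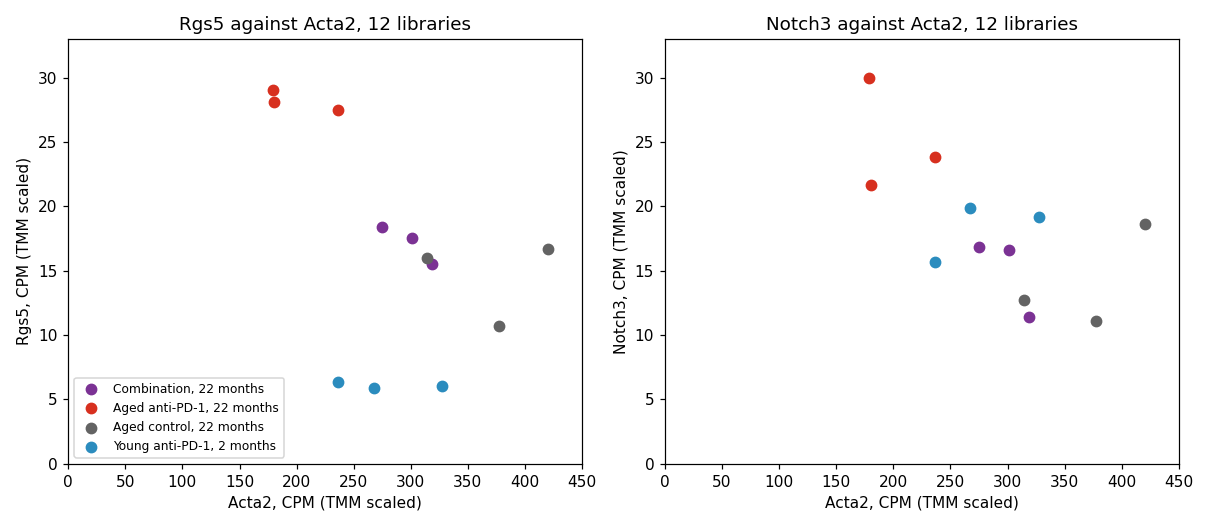
Rgs5 (left) and Notch3 (right) against Acta2 in CPM (read counts scaled to library size, with TMM), with 1 point per library colored by group. The 3 aged anti-PD-1 libraries sit at the upper left, with Rgs5 above 27 CPM and Acta2 between 179 and 236 CPM, and the 3 young libraries sit at the bottom of the left panel, with Rgs5 between 5.88 and 6.35 CPM and Acta2 between 236 and 328 CPM.

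Other genes of each pathway came from lists drawn up with earlier results of these data known. For scale, 5.34% of all genes tested rose and 5.58% fell in aged anti-PD-1 lungs against aged control. In combination against aged anti-PD-1 lungs 4.67% rose and 4.35% fell. Between aged and young anti-PD-1, 8.09% were higher and 7.16% lower. A count of 1 in so short a list is not read as a result about the list. Of 14 further pericyte markers, 1 rose and 0 fell in aged anti-PD-1 lungs against aged control (median log2 0.24), and 0 rose and 3 fell in combination against aged anti-PD-1 lungs (median -0.46). The 1 that rose was Lamc3, a laminin chain, at 10.2 ± 2.10 CPM in aged anti-PD-1 lungs and 6.38 ± 1.64 CPM in aged control lungs (SD, n = 3 each; log2 0.68 ± 0.21; adjusted p = 0.0491, edgeR). Its libraries overlapped between these groups. Without aged control library 1 the count that rose was 7. It was 0 without aged anti-PD-1 library 2, aged control library 2 or 3, combination library 2 or 3, or any 1 young library, and 2 without combination library 1. The 3 that fell with the combination were Lamc3 (log2 -0.77 ± 0.21; adjusted p = 0.0354), Gucy1b1, a subunit of the nitric oxide receptor guanylate cyclase (-0.74 ± 0.18; 0.023), and the adhesion molecule Mcam (-0.76 ± 0.20; 0.0335), which endothelium also makes. This count was 0 without aged anti-PD-1 library 1 or 2 or combination library 2 or 3, 2 without aged anti-PD-1 library 3 or young library 2, and 5 without aged control library 1. The ATP-sensitive potassium channel subunit Kcnj8, one of the 14, had 7.78 ± 0.979 CPM in aged anti-PD-1 and 11.3 ± 1.71 CPM in aged control lungs (log2 -0.54 ± 0.17; adjusted p = 0.0625 by edgeR), the opposite sign to Rgs5. Higd1b, also one of the 14, had 19.1 ± 2.87 CPM in aged anti-PD-1 lungs and 18.2 ± 7.67 CPM in aged control lungs (adjusted p = 0.881 by edgeR). Kcnj8 and Higd1b were singled out after their values were seen. Between aged and young anti-PD-1, 2 of the 14 were higher, Lamc3 (log2 0.98 ± 0.21) and the channel subunit Abcc9 (0.61 ± 0.19), and 0 lower. The median of the 14 was log2 -0.205 there, the opposite sign to that of Rgs5, beside -0.007 for all genes tested. The count higher was 1 without aged anti-PD-1 library 1 or 2, young library 2 or 3, aged control library 3, or combination library 1 or 3.

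Of 16 further contractile genes, 0 rose and 6 fell in aged anti-PD-1 lungs against aged control (median log2 -0.11). These were Tpm2, a tropomyosin of smooth muscle thin filaments, at 85.3 ± 11.9 CPM in aged anti-PD-1 and 186 ± 37.0 CPM in aged control lungs (log2 -1.12 ± 0.20; adjusted p = 0.00745, edgeR), the myosin light chain Myl9 (-0.82 ± 0.15; 0.00738), the LIM protein Csrp1 (-0.66 ± 0.12; 0.00745), Tpm1 (-0.46 ± 0.12; 0.0275), Kcnmb1 and Ppp1r14a. The count was 3 without aged anti-PD-1 library 2 or 3 or aged control library 1. The other 10 did not pass the test, among them the myosin light chain kinase Mylk (153 ± 13.4 CPM in aged anti-PD-1, 148 ± 12.4 CPM in aged control), the caldesmon gene Cald1 (136 ± 5.95 and 147 ± 7.82 CPM in the same order) and Smtn. In combination against aged anti-PD-1 lungs, 2 rose, Tpm2 (log2 0.74 ± 0.20; adjusted p = 0.0397, edgeR) and Csrp1 (0.49 ± 0.12; 0.0258), and 0 fell, with a median of 0.02. That count was 0 without any 1 aged anti-PD-1 library or combination library 2, and 1 without young library 3 or combination library 3. Between aged and young anti-PD-1, 2 were higher, Pln, the inhibitor of the calcium pump (1.20 ± 0.23), and Myl9 (0.79 ± 0.15), and 3 were lower, with Ppp1r14a at -0.85 ± 0.19, Csrp1 at -0.65 ± 0.12 and Tpm1 at -0.55 ± 0.12.

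The actins outside this set were measured beside Acta2 and Actg2. Cytoplasmic gamma-actin, Actg1, found in every cell type, fell to 1143 ± 57.8 CPM in aged anti-PD-1 lungs, against 1808 ± 221 CPM in aged control lungs (log2 -0.66 ± 0.15; adjusted p = 0.0152, edgeR), and rose in combination against aged anti-PD-1 lungs (0.56 ± 0.15; 0.031). It was the only 1 of 4 other actin genes to pass in either comparison, and the count was 0 without aged anti-PD-1 library 2 or aged control library 2 in the first, and without any 1 aged anti-PD-1 library or combination library 1 or 2 in the second. Of 4 other intermediate filament genes tested out of 5 listed, Nes (nestin) rose in aged anti-PD-1 lungs against aged control (log2 0.77 ± 0.18; adjusted p = 0.022) and fell with the combination (-0.88 ± 0.18; 0.0146), while Prph fell in the first (0.702 ± 0.197 CPM in aged anti-PD-1 and 1.82 ± 0.280 CPM in aged control lungs; log2 -1.38 ± 0.37; 0.0306). Nes passed neither test without aged anti-PD-1 library 1, nor the first without aged control library 2 or the second without combination library 2, and the count that fell in the first was 0 without any 1 library of its groups.

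Among 12 Notch ligands, receptors and targets besides Notch3, 7 rose and 0 fell in aged anti-PD-1 lungs against aged control, and 0 rose and 7 fell in combination against aged anti-PD-1 lungs. The medians were log2 0.51 and -0.58. The ligand Dll4, which arterial and tip endothelial cells make, was at 20.6 ± 5.30 CPM in combination lungs, 49.4 ± 4.70 CPM in aged anti-PD-1 and 20.5 ± 6.08 CPM in aged control lungs. It rose in the first comparison (log2 1.27 ± 0.22; adjusted p = 0.00738, edgeR) and fell in the second (-1.26 ± 0.22; 0.00844). Notch4, an endothelial receptor, had 27.2 ± 6.78 CPM in combination lungs, 78.7 ± 5.39 CPM in aged anti-PD-1 and 37.9 ± 14.4 CPM in aged control lungs (second comparison log2 -1.53 ± 0.27; adjusted p = 0.00848). Jag1, Jag2, Notch1 and Nrarp also rose in the first and fell in the second, Hey1 passed only the test of the first and Dll1 only that of the second. Heyl and Hes1, targets of Notch signalling, had log2 differences between -0.12 and 0.16 in both and did not pass. The first count was 2 without aged anti-PD-1 library 1, 3 without aged anti-PD-1 library 3 or aged control library 2, and 4 without aged anti-PD-1 library 2 or aged control library 3. The second was 3 without combination library 2 and 4 without aged anti-PD-1 library 1. Between aged and young anti-PD-1, 4 of the 12 were higher (Jag2, Dll1, Notch1 and Notch4) and 0 lower, with 2 higher without aged anti-PD-1 library 1 or young library 2 or 3.

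**Figure D4:**
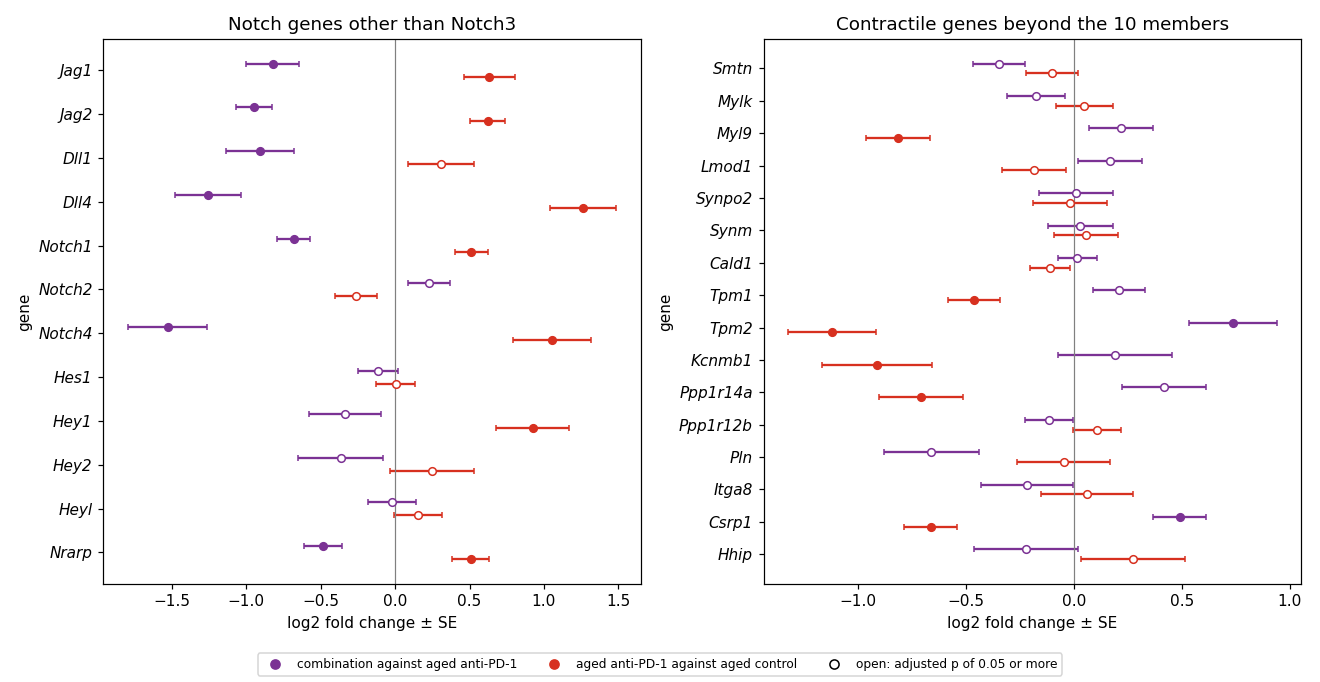
Log2 fold change ± SE of 12 Notch genes (left) and 16 contractile genes (right) in combination against aged anti-PD-1 (purple) and aged anti-PD-1 against aged control (red), with filled points for an adjusted p under 0.05. On the left 7 red points are filled right of zero and 7 purple points left of it; on the right 6 red points are filled left of zero and 2 purple points right of it. The aged anti-PD-1 libraries enter both colors.

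For the ligands and receptors of PDGF, 0 of 6 passed in aged anti-PD-1 lungs against aged control, and Pdgfb, the endothelial ligand of Pdgfrb, had 79.7 ± 10.7 CPM in aged anti-PD-1 and 65.7 ± 28.5 CPM in aged control (adjusted p = 0.457 by edgeR). Pdgfd, another ligand of that receptor, fell in combination against aged anti-PD-1 lungs (log2 -0.68 ± 0.18; adjusted p = 0.0319), 1 of 6, and 0 passed without aged anti-PD-1 library 1 or 3 or combination library 2 or 3. Without aged control library 1, 1 of the 6 rose in aged anti-PD-1 lungs against aged control. Of 8 TGF-beta ligands and receptors, Eng and Acvrl1, coreceptor and receptor of endothelium, rose in aged anti-PD-1 lungs against aged control (log2 0.81 ± 0.23, adjusted p = 0.042, and 0.73 ± 0.18, 0.0232), and Tgfb1 fell (-0.42 ± 0.12; 0.044). The count that rose there was 0 without aged anti-PD-1 library 2 or 3 or aged control library 2 or 3 and 1 without aged anti-PD-1 library 1 or young library 1 or 2, and the count that fell was 0 without any 1 aged anti-PD-1 or young library, aged control library 2 or 3 or combination library 3. Acvrl1 fell with the combination (-0.77 ± 0.18; 0.0201), 1 of 8, with 0 without aged anti-PD-1 library 2 or combination library 2 or 3 and 2 without aged control library 1 or combination library 1. Of 9 regulators of smooth muscle transcription, 1 passed in each of these comparisons: Foxf1, a forkhead factor of lung endothelium and mesenchyme, was at 119 ± 22.6 CPM in combination, 229 ± 20.5 CPM in aged anti-PD-1 and 114 ± 18.8 CPM in aged control lungs. It rose in aged anti-PD-1 lungs against aged control (log2 1.01 ± 0.15; adjusted p = 0.00431) and fell with the combination (-0.95 ± 0.15; 0.00541), and each count of 1 stayed at 1 or 2 when single libraries were left out. Serum response factor, Srf, had 78.8 ± 17.4 CPM in aged anti-PD-1 and 111 ± 14.3 CPM in aged control lungs (log2 -0.49 ± 0.17; adjusted p = 0.0744 by edgeR), and was singled out after its values were seen. Its coactivator Myocd, with only 2 to 15 counts a library, lay at 0.502 ± 0.254 CPM in combination, 0.178 ± 0.085 CPM in aged anti-PD-1, 0.342 ± 0.067 CPM in aged control and 0.624 ± 0.068 CPM in young anti-PD-1 lungs, and passed neither of these tests (adjusted p = 0.277 for aged anti-PD-1 against control and 0.0972 for the combination against aged anti-PD-1, edgeR). Between aged and young anti-PD-1, 2 of the 9 regulators were higher (Foxf1 and Mrtfa) and 2 lower (Myocd and Foxo4). The count lower was 0 without aged anti-PD-1 library 3 or young library 2 or 3 and 1 without aged anti-PD-1 library 2 or young library 1, and the count higher was 1 without aged anti-PD-1 library 3.

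Rgs5 belongs to the R4 family of small RGS proteins, of which 6 of 9 others were tested. None passed in aged anti-PD-1 lungs against aged control, and 1 rose in combination against aged anti-PD-1 lungs: Rgs2, which was at 257 ± 23.2 CPM in combination and 177 ± 5.27 CPM in aged anti-PD-1 lungs (log2 0.54 ± 0.14; adjusted p = 0.0263, edgeR). That count was 0 without any 1 aged anti-PD-1 library or combination library 1 or 2, and 2 without aged control library 1. Rgs4, like Rgs5 a gene of mural cells, had 3.83 ± 2.06 CPM in combination lungs, 7.31 ± 0.576 CPM in aged anti-PD-1 and 5.71 ± 1.38 CPM in aged control lungs, and passed neither test (adjusted p = 0.0612 and 0.426 in that order). In aged against young anti-PD-1 lungs, Rgs18, a family member of platelets and megakaryocytes, was higher by log2 1.89 ± 0.20. No list in these paragraphs had a called gene in combination against aged control lungs.

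Markers of other cell types moved with these genes. The 9 blood endothelial genes summed to 1581 to 2032 CPM in combination libraries, 2464 to 2857 in aged anti-PD-1, 1559 to 2376 in aged control and 2115 to 2498 in young anti-PD-1, and none was at 0. Of the 9, 6 rose and 0 fell in aged anti-PD-1 lungs against aged control, and 0 rose and 5 fell in combination against aged anti-PD-1. As a percent of that sum, Rgs5 was 0.863 to 1.14% in combination libraries, 0.986 to 1.14% in aged anti-PD-1, 0.688 to 0.846% in aged control and 0.241 to 0.298% in young anti-PD-1. For Rgs5 the ranges thus overlapped between combination and aged anti-PD-1, and not between aged anti-PD-1 and aged control or between aged and young. As a percent of the sum of 9 fibroblast markers, Rgs5 was 0.922 to 1.03% in combination and 1.61 to 2.04% in aged anti-PD-1 libraries, without overlap. Notch3 was 0.72 to 1.04% of the endothelial sum in combination, 0.856 to 1.05% in aged anti-PD-1 and 0.674 to 0.785% in aged control libraries. Pdgfrb was 1.2 to 1.69%, 1.17 to 1.32% and 1.11 to 1.71% of it in the same order. Cspg4 was 0.328 to 0.356%, 0.269 to 0.31% and 0.212 to 0.345%. For Pdgfrb and Cspg4 aged anti-PD-1 and aged control thus overlapped, and Cspg4 lay higher in combination than in aged anti-PD-1. The part of endothelium in the levels of Rgs5, Notch3 and the other Notch genes was not tested.

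Ciliated airway markers, 6 genes, summed to 313 to 433 CPM in combination libraries, 253 to 353 in aged anti-PD-1, 409 to 501 in aged control and 318 to 381 in young anti-PD-1. As a percent of that sum Actg2 was 8.22 to 8.82% in aged anti-PD-1 and 11.9 to 15.5% in aged control libraries, and Cnn1 17.3 to 20.6% and 23.2 to 30.1% in the same order. For these, and for Acta2 (52.3 to 71.4% and 75.3 to 91.9%), the groups did not overlap, whereas those of Tagln (67.9 to 102% and 83.7 to 107%), Des (38.8 to 48.1% and 33.6 to 56.5%) and Myh11 (24.8 to 33% and 16.0 to 30.3%) did. In combination libraries Actg2 was 10.1 to 11.0% and Cnn1 24.1 to 26.4% of the ciliated sum, above aged anti-PD-1, and Acta2 was 64.7 to 96.1%, overlapping it. Mesothelial markers, 5 genes, summed to 122 to 160 CPM in combination libraries, 83.1 to 118 in aged anti-PD-1, 207 to 348 in aged control and 211 to 355 in young anti-PD-1, with 5 of 5 lower in aged anti-PD-1 against either of the last 2 groups. Set against this sum the order differed from that in CPM. Acta2 was 152 to 245% of it in aged anti-PD-1 and 90.4 to 203% in aged control libraries, Cnn1 50.1 to 70.4% and 30.7 to 66.6%, Actg2 23.8 to 30.5% and 15.6 to 34.3%, and Tagln 197 to 334% and 106 to 236%, all overlapping and with higher medians in aged anti-PD-1. Myh11 was 71.8 to 118% in aged anti-PD-1 and 28.1 to 67.1% in aged control libraries, with no overlap. Skeletal muscle markers, 10 genes, summed to 36.5 to 42.9 CPM in combination, 28.8 to 30.6 in aged anti-PD-1 and 43.3 to 56.0 in aged control libraries, with Myh4 at 0 in all. Cartilage markers stayed under 6 CPM in sum, with Col9a1 at 0 in all libraries, and melanoma markers under 10 CPM. The 9 fibroblast markers summed to 1686 to 1802 CPM in combination, 1375 to 1802 in aged anti-PD-1 and 1686 to 2034 in aged control libraries, with 0 rising and 2 falling between the last pair. Over this sum, aged anti-PD-1 and aged control did not overlap for Acta2 (9.93 to 15.8% and 18.6 to 23.1%), Actg2 and Cnn1. They overlapped for Tagln (12.9 to 21.5% and 20.6 to 26.8%), Des and Myh11. Combination overlapped aged anti-PD-1 for Acta2 (15.3 to 18.9%) and every other contractile gene but Cnn1. Over the endothelial sum, itself highest in aged anti-PD-1 among aged groups, all contractile genes lay lower in aged anti-PD-1 than in the other aged groups. The part of airway, mesothelial and other tissue, and of the mitochondrial and haemoglobin shares, in the contractile levels was not tested.

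By likeness over the 12 libraries, among 16433 genes, log2 CPM of Slc25a37 (Pearson r = 0.951), Ffar1 (0.941), Phtf2 (0.937), Igkv4-55 (0.935) and Htr2b (0.932) was closest to that of Rgs5. Slc25a37, a mitochondrial iron carrier of erythroid cells, averaged 40.7 CPM in combination, 48.0 in aged anti-PD-1, 36.8 in aged control and 26.7 in young anti-PD-1 lungs, and the antibody light chain segment Igkv4-55 averaged 13.2, 22.0, 1.91 and 0.388 CPM in that order. For the mean pattern of Acta2, Myh11, Tagln and Cnn1 the closest genes were Gsn (r = 0.979), RP23-228B2.5 (0.960), Hint2 (0.943), Tpm2 (0.942) and Hyi (0.929). Gsn, the actin-severing protein gelsolin, averaged 2631 CPM in combination, 2104 in aged anti-PD-1, 3072 in aged control and 2604 in young anti-PD-1 lungs. RP23-228B2.5 is the antisense gene that shares reads with Tagln.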

How the data were processed

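Whole-lung poly(A) RNA was sequenced in 12 libraries prepared, per the labels' protocols, with a directional NEBNext kit. The values are raw counts per gene as deposited by the authors; per the submitters' processing notes, reads passed through bcl2fastq 1.8.4, Trimmomatic, HISAT2 and featureCounts 1.6.3 on mm10. Options, annotation release and strand setting are not given in the sources used here.

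Genes were kept with filterByExpr (minimum count 10, total 15), which left 18556. After TMM scaling, 1 robust edgeR 4.0.16 quasi-likelihood fit (R 4.3.3) with 4 group means and 8 residual degrees of freedom gave two-sided tests, Benjamini-Hochberg adjusted over all genes tested and called under 0.05. CPM are TMM scaled; exon lengths came from GENCODE M21, in which 49326 of 49585 gene IDs were found, 45125 with identical coordinates. Promoters are RefSeq's. DESeq2 1.42.0, limma-voom (limma 3.58.1), other scalings and filters, a block, fits of the compared groups and leaving out each library were alternatives. The leave-one-out counts of the lists were added after seeing the data. The fit was checked on simulated counts.

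The genes and lists were chosen with earlier results of these data known. The naming rule took, per list and comparison, up to 4 called genes with the smallest adjusted p, or else up to 2 of the highest mean CPM, and the 5 genes most like Rgs5 and the contractile mean; a selection is printed.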

Additional observations from a re-analysis of the deposited data

How the results depend on the processing

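Of 840 values of the 10 genes (4 comparisons, 21 alternatives each, 12 of which leave out 1 library), 783 kept their side of the threshold, 42 lost a call, 15 gained one and 0 called values changed sign; 15 uncalled values had another sign. Over the leave-one-out analyses, the number of the 10 genes called ranged over 1 to 5 in aged against young anti-PD-1 (5 with all libraries), 4 to 8 in aged anti-PD-1 against aged control (6), 0 to 6 in combination against aged anti-PD-1 (4) and stayed at 0 in combination against aged control. In aged against young anti-PD-1 it was 2 without aged anti-PD-1 library 1 or young library 1, and 1 without library 3 of either. Over all genes, 2830 of 18556 were called there with all libraries. Without aged anti-PD-1 library 1 it was 2237 of 18901, and without young library 1 it was 2159 of 18918. Without library 3 it was 1252 of 18877 for aged anti-PD-1 and 1160 of 18904 for young. The cause of these changes was not tested, although leaving out a library leaves a group with 2.

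Samples with the same replicate number did not deviate together (median correlation of residuals -0.012 over 18 pairs, -0.169 to 0.171). With a replicate block, 5, 6, 4 and 0 of the 10 genes were called in the 4 comparisons, the same counts as without it. Over all 18556 genes tested, the block gave 2493, 1702, 1455 and 0 calls, against 2830, 2025, 1674 and 0 without it. Over all genes, a fit of the compared groups only called 881 genes in aged anti-PD-1 against aged control, against 2025 in the fit of 12 libraries. For Cspg4, with 75 to 203 counts a library, counting error is larger than for the contractile genes.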
